A study of Salmo salar with 72 samples.

Results

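Primary hepatocytes of 3 Atlantic salmon (Salmo salar) were compared at 50 µM and at 10 µM arsenate (AsV), within fish, across all genes of the deposited table. The comparison took the 3 libraries titled AsV 50 µM and the 3 libraries titled AsV 10 µM, chosen by title and not by any measured value, which are 6 of the 72 libraries of the series. The cells came from male fish by collagenase perfusion of the liver, were kept on porous scaffolds in serum-supplemented medium, and were exposed for 48 h. The AsV control cultures of the same 3 fish received no arsenate and stayed outside the contrast, as did the cultures at 100 µM. No source used here gives strain, age or genetic background. Doses are nominal and are those of the titles, since another label text of the samples names other compounds. Each library is 1 culture of 1 fish, so n is 3 per group. The test takes out the level of each fish. Its standard errors thus measure how the change varied between fish, mixed with variation between cultures, and not the spread of levels between animals. Levels are bulk RNA of a culture, in which fewer cells of a type and less RNA per cell cannot be told apart.

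Arsenate resembles phosphate and enters cells through phosphate transporters. Inside it is reduced to arsenite, which binds protein thiols and is methylated with S-adenosylmethionine as the methyl donor or leaves the cell as a glutathione conjugate through ABC pumps. From work in mammals, thiol stress of this kind releases the transcription factor NRF2 from KEAP1, damaged proteins activate the heat shock factor HSF1, and amino acid or heme shortage acts through ATF4. The step between the 2 doses asks which of these programmes, and which liver functions, differed between the doses.

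Recovered depth of the 6 libraries was 33.9 to 40.3 M reads. The fish 3 library at 10 µM stood apart. It lay at 118.21 on the second principal component of the 12 arsenate libraries, against -28.71 and -30.89 for the other cultures at that dose, and 1729 of the 25830 genes were listed at 0 in it. The fish 3 library at 50 µM had 1505 such genes, and no other library of the step had more than 469. On the first component (35.6% of the variance) the 50 µM libraries lay at 30.08, 54.36 and 132.44 and the 10 µM libraries at -42.42, -65.59 and -101.56 (fish 1, 2 and 3, the order of all triples below). The fish 3 culture at 100 µM lay at -6.59, below its own 50 µM culture, whereas fish 1 and 2 lay higher at 100 µM (69.92 and 110.07) than at 50 µM. Counts of the lists are therefore also given without the fish 3 library at either dose where these move by more than 1.5 times. Defining hepatocyte products stayed abundant, with summed values of albumin, apolipoprotein and related genes of 6967804 to 8522801 at 50 µM and 7630728 to 9069056 at 10 µM. Markers of other liver cells were low, and none of the 23 tested ones passed the test, while 8 others were too low to test. Summed values were 82.4 to 645 for 9 erythroid genes at 50 µM against 69.2 to 256.8 at 10 µM, and 267.8 to 519 for 4 leukocyte genes against 316.7 to 720.9. Endothelial genes (5) summed to 59.9 to 73.6 against 70.3 to 128.5, biliary genes (6) to 162.9 to 196.3 against 235.6 to 318.6, and stellate or fibroblast genes (7) to 887.7 to 1184 against 1015 to 1292. The erythroid genes leaned higher at 50 µM (7 of 8 tested), and their part in the results was not tested.

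At 50 µM, 1263 genes were higher and 804 were lower than at 10 µM, of 24493 genes tested (limma with a fish term, Benjamini-Hochberg adjusted p under 0.05). This is the background for every count below: 8.44% of tested genes passed, 5.16% upward and 3.28% downward. All 2067 genes that passed moved the same way in all 3 fish, but the test used these same fish and favours such genes. Of the rises, 948 were at least 2-fold and 265 at least 4-fold. Among the falls, 620 were at least 2-fold. The values of the 2 doses did not overlap for 1222 of the rises and 770 of the falls, where over all tested genes 14.6% lay wholly higher and 13.4% wholly lower at 50 µM. Fish 3 moved most. The median rise was 0.98 in fish 1, 1.28 in fish 2 and 1.69 in fish 3 on the log2 scale, and the median fall was -1.10, -1.40 and -1.52. Without the fish 3 library at 10 µM 442 genes passed, 276 of them higher, and 439 of the 442 were among the genes above. Without that at 50 µM 725 passed, 406 of them higher, and 686 were among the genes above. Of the 114 named genes that passed, 41 passed without the fish 3 library at 10 µM and 61 without that at 50 µM. With all libraries of fish 3 left out, 793 genes passed, 516 of them higher, and 63 of the 114 named genes did. Fewer passed without the other fish: 288 genes and 36 of the 114 without fish 1, and 526 and 47 without fish 2. The drop in counts was thus not confined to fish 3. Fits without a fish have fewer samples, which alone lowers such counts. They cannot separate this from a dependence on single animals. The adjusted p without the 10 µM library or the count of its list is given below where leaving it out ends the call of one of these genes. The last gene to pass had an adjusted p of 0.04991, and the first to miss had 0.05004.

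The neighbouring steps were tested in the same fit, and they share the 10 or the 50 µM libraries. At 10 µM against the control no gene passed (0 of 24493, with 0.674% of genes at an unadjusted p under 0.05, 0 by edgeR and 4 by DESeq2), and at 100 µM against 50 µM none passed either (409 at an unadjusted p under 0.05, 0 by edgeR and 0 by DESeq2). The spread of each gene was estimated over all arsenate libraries together, so its standard error was the same in every arsenate step. The unadjusted shares, 0.674% and 1.67%, lie below the share of 0.05 that this threshold gives when no gene changes. These tests thus leaned conservative, and a count of 0 does not show that no gene changed. The count at 100 against 50 µM changed with fish 3: leaving out its libraries, 27 genes passed, 24 of them higher, and leaving out its 50 µM library alone 2 were higher. Without all libraries of fish 3, 2841 genes (11.5%) had an unadjusted p under 0.05 in that step, against 409 with them. Against the control itself, 1333 genes were higher (5.44%) and 963 lower (3.93%) at 50 µM, and 1424 were higher (5.81%) and 808 lower (3.3%) at 100 µM, which is 9.37% and 9.11% of genes in all.

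**Figure D1:**
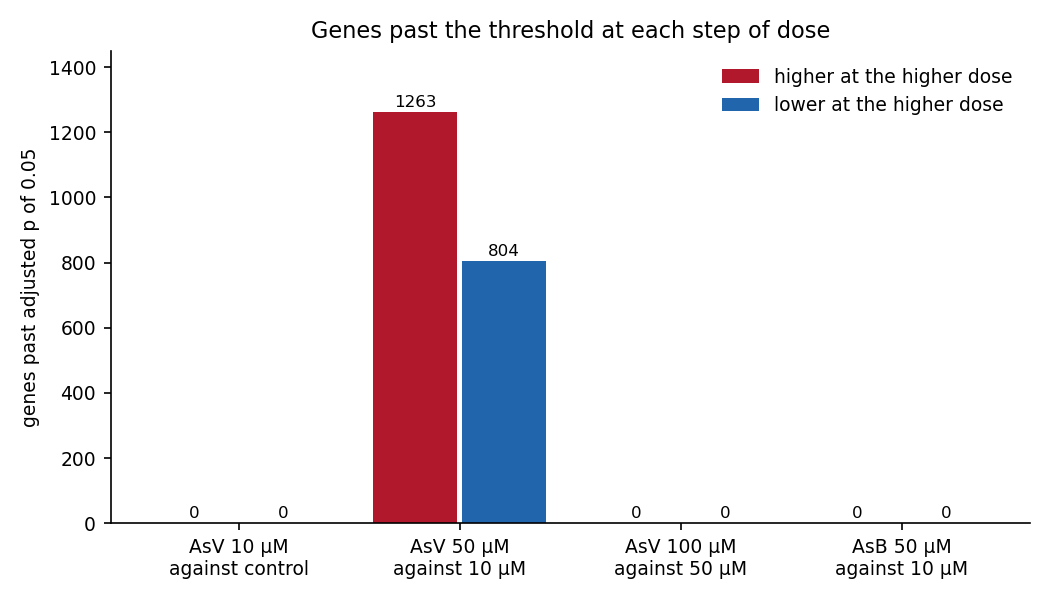
Number of genes past an adjusted p of 0.05 (vertical axis) for 3 consecutive arsenate steps and for the same 10 to 50 µM step of arsenobetaine, with genes higher at the higher dose in red and lower in blue. The 1263 rises and 804 falls lie in the step from 10 to 50 µM arsenate, and the other 3 steps have 0. The arsenobetaine count comes from a separate fit of 27 libraries.

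Molecular chaperones were among the largest rises. Of 95 tested genes in the heat shock list, 31 rose and none fell, which is 32.6% against 5.16% of all genes, and the list median was 1.23 where the median of all genes was -0.03. The cytosolic chaperone HSP90-alpha (hs90a) had 126369, 88149 and 360213 normalised counts at 50 µM, against 11631, 2421 and 1719 at 10 µM. Every culture at 50 µM exceeded every culture at 10 µM, and the log2 change with its standard error, the form of all changes below, was 5.45 ± 0.76 (adjusted p = 0.0028, 0.0277 without the fish 3 library at 10 µM). A second hsp90-alpha-like gene, LOC106608136, stood at 30652, 13417 and 86951 at 50 µM, against 5267, 1551 and 457 at 10 µM, a change of 4.41 ± 0.91 (adjusted p = 0.0156, 0.088 without that library). The other copies named HSP90-alpha 1, LOC106571588 (1.79 ± 0.99) and LOC106608137 (2.06 ± 1.44), did not pass. LOC106608137 had 362, 129.8 and 3838 at 50 µM, against 255, 80.9 and 120.0 at 10 µM, so that the fish 3 culture at 50 µM stood far above the rest.

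Within the list, 12 of 23 genes of the hsp70 and hsp110 type rose, 8 of 30 dnaJ co-chaperones, which hand clients to hsp70, 2 of 16 small heat shock proteins and 1 of 3 mitochondrial chaperonin genes, whereas none of 4 heat shock factors passed, nor any of 4 heat shock factor-binding proteins. Most of the hsp70 copies named below separated fish 3 from the rest. LOC106596195 had 1398, 1430.0 and 8268 normalised counts at 50 µM, against 632, 182 and 19.8 at 10 µM, and LOC106599929 had 372, 411 and 1815 at 50 µM, against 129.7, 40.9 and 8.5 at 10 µM. In both genes fish 3 was lowest of the 3 at 10 µM and highest at 50 µM. Their changes were 4.25 ± 1.17 and 4.13 ± 1.03 (adjusted p = 0.0475 and 0.0327, 0.193 and 0.15 without the fish 3 library at 10 µM). LOC106607232 rose by 4.38 ± 1.07 (adjusted p = 0.0296, 0.136 without that library), while LOC106572869 (4.22 ± 1.76, adjusted p = 0.156), LOC106597682 (3.57 ± 1.08) and LOC106607282 (3.49 ± 1.01) did not pass. The gene hsp70-3 went another way, with 133, 63.4 and 47.4 at 50 µM, against 43.2, 22.6 and 60.5 at 10 µM. Its fish 3 culture was highest at 10 µM and lowest at 50 µM, and it did not pass (0.90 ± 0.785, adjusted p = 0.49). Reads of such near-identical copies can be split between them, so values of single copies are uncertain. LOC106563467, a small chaperone gene of the beta-11 type, had 540.3, 176.8 and 1866 at 50 µM, against 101.6, 0 and 0 at 10 µM, and the hsp70 4L-like gene LOC106597416, of the hsp110 type that exchanges nucleotide on hsp70, had 151.7, 61.3 and 554 at 50 µM, against 19.5, 10.4 and 0 at 10 µM. Both were at or near 0 in 1 or more cultures at 10 µM, so their fitted changes (6.91 ± 1.39 and 4.82 ± 1.29) depend on the pseudocount of 1, and neither passed without that library (adjusted p = 0.0856 and 0.184). The constitutive hsp7c, chosen after its values were seen, rose by 1.60 ± 0.20 (adjusted p = 0.00157). Leaving out the fish 3 library at 10 µM, 11 genes of the list rose, and leaving out that at 50 µM, 16 rose, with list medians of 1.30 and 0.65. With all libraries of fish 3 left out, 23 rose (list median 0.69).

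The largest fitted rise was that of the cornichon-like gene LOC106563472, a family of cargo receptors for secretion, with 290.3, 77.7 and 1502 at 50 µM, against 1.1, 0 and 0 at 10 µM (7.99 ± 1.18, adjusted p = 0.00345, 0.0277 without the fish 3 library at 10 µM). Among the other large rises were genes named for partners of chaperones and of the proteasome. The AN1-type zinc finger protein 2A-like gene LOC106601116, whose mammalian counterpart is induced by arsenite and binds the proteasome, had 31473, 22895 and 84396 normalised counts at 50 µM, against 2379, 413 and 630.2 at 10 µM. All 3 fish rose, by 5.53 ± 0.66 on average (adjusted p = 0.0014, 0.0193 without the fish 3 library at 10 µM). The myosin chaperone and hsp90 partner unc-45 B-like, LOC106585035, had 2413, 564 and 10158 at 50 µM, against 289.7, 89.7 and 0 at 10 µM (6.33 ± 1.66, adjusted p = 0.0398, 0.176 without that library). A PML-like gene, LOC106596922, named for the nuclear body protein that binds arsenic in human cells, had 585, 292 and 5524 at 50 µM, against 74.6, 26.1 and 17.9 at 10 µM (4.86 ± 1.06, adjusted p = 0.0193, 0.105 without that library).

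**Figure D2:**
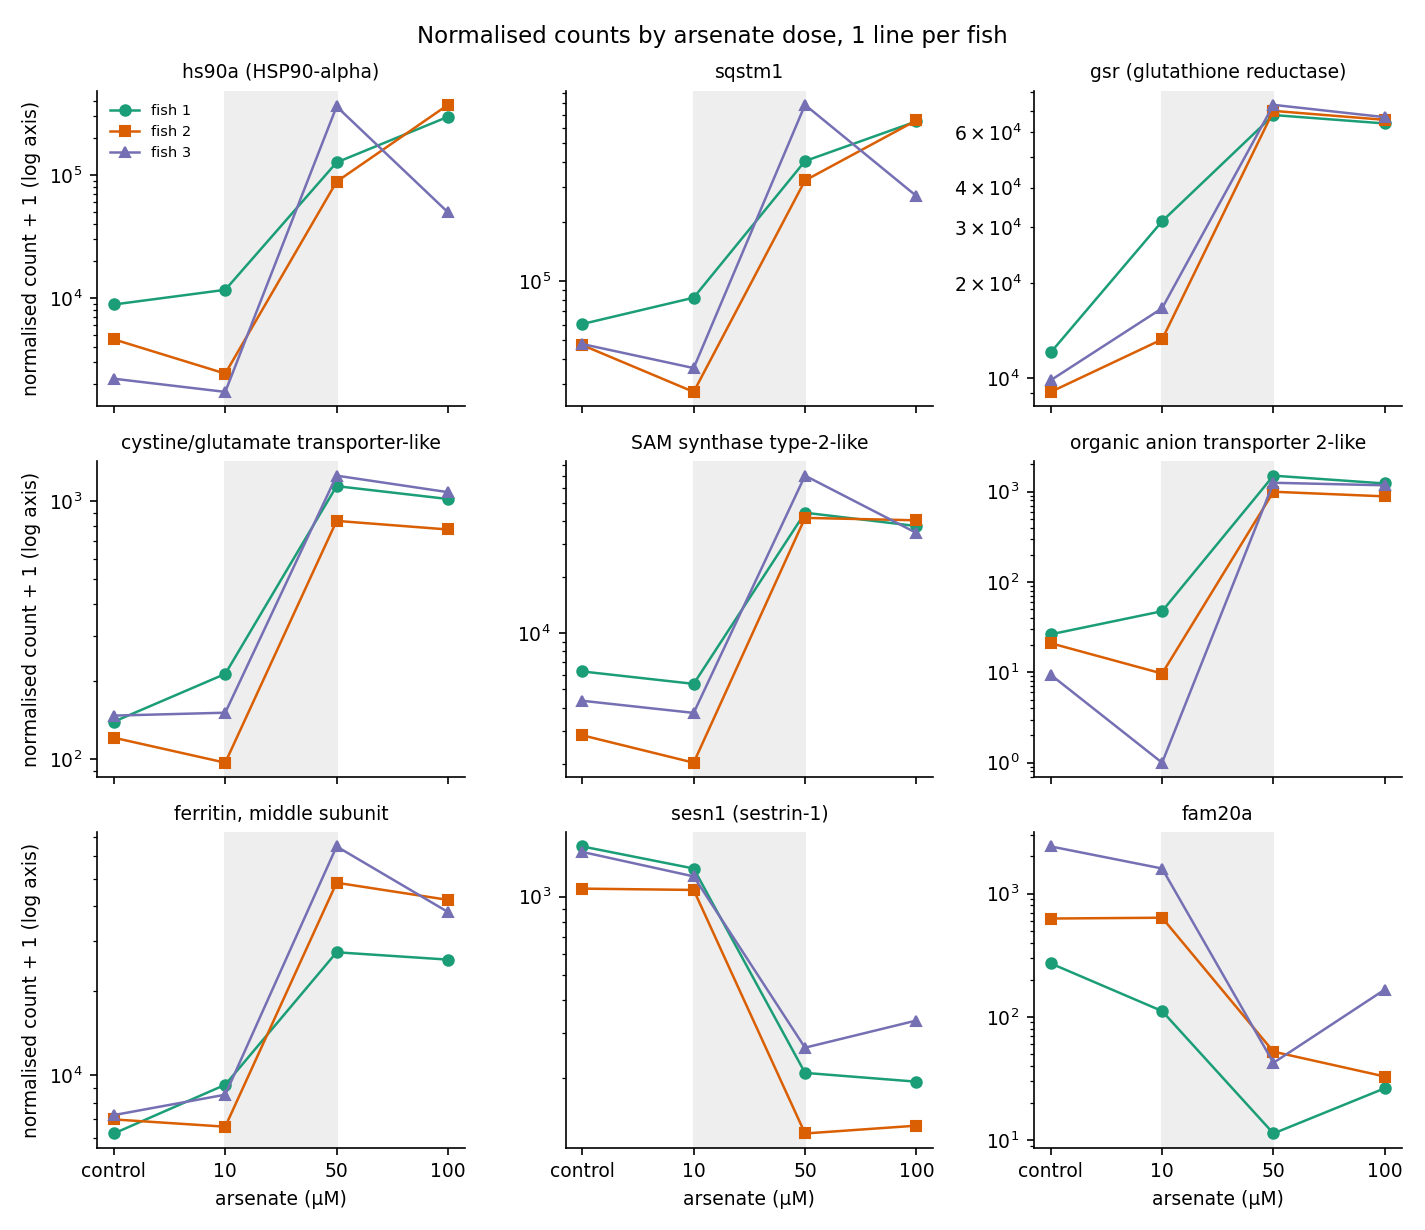
Normalised counts plus 1 on a log axis against arsenate dose for 9 genes, with 1 line per fish and the 10 to 50 µM step shaded. The step separates the doses in all 3 fish for each gene shown. At 100 µM fish 3 lies below its own 50 µM value for hs90a and sqstm1, where fish 1 and 2 lie above theirs, while gsr and the cystine/glutamate transporter-like gene stand close together at 50 and 100 µM in every fish.

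Genes that make and recycle glutathione rose. Of 75 tested redox and glutathione genes, 19 rose and none fell (25.3% against 5.16% of all genes, list median 0.27). The list's summed values were 435381 to 459502 at 50 µM, against 204224 to 317534 at 10 µM. Glutathione reductase (gsr), which returns oxidised glutathione to its thiol form, had 67789, 69869.8 and 72997 normalised counts at 50 µM, against 31329.6, 13283 and 16657 at 10 µM. The 50 µM cultures lay within a narrow range and all above the 10 µM cultures, with a change of 1.88 ± 0.24 (adjusted p = 0.00173, 0.023 without the fish 3 library at 10 µM). At 10 µM gsr also lay above the control in each fish (31329.6, 13283 and 16657 at 10 µM, against 12080.1, 9069 and 9873 in the control), but that difference of 0.89 ± 0.24 did not pass (adjusted p = 1). As the test of that step leaned conservative, the miss does not show that gsr was unchanged at 10 µM. The cystine/glutamate transporter-like gene LOC106604686, which brings in the cysteine for glutathione, had 1145, 839 and 1258 at 50 µM, against 213, 95.7 and 150.2 at 10 µM. Its change of 2.87 ± 0.23 was large against its error (adjusted p = 0.000205, 0.0032 without that library). The other copy, LOC106609505, had 5.6, 24.5 and 41.3 at 50 µM, against 6.5, 30.5 and 49.1 at 10 µM, and the doses overlapped (-0.24 ± 0.60).

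All 4 glutamate-cysteine ligase genes, which make the first and rate-limiting step of glutathione synthesis, rose. The catalytic gene gsh1 had 11808, 8968 and 7928 at 50 µM, against 5121, 2530.1 and 3995 at 10 µM (1.34 ± 0.25), and its near copy LOC106612605 rose by 1.28 ± 0.22. The regulatory genes gsh0 and LOC106584335 rose by 1.56 ± 0.28 and 1.12 ± 0.22 (adjusted p of the 4 genes 0.00703 to 0.0115). Without the fish 3 library at 10 µM LOC106612605 passed (0.0489), and gsh1, gsh0 and LOC106584335 did not (adjusted p = 0.0556, 0.0624 and 0.0752). Glutathione synthetase (gss), the next enzyme, had 1836, 1639 and 1551 at 50 µM, against 1348, 702 and 1085 at 10 µM, which did not overlap, yet its change of 0.73 ± 0.23 missed the threshold (adjusted p = 0.0678). Both tested thioredoxin reductase 1-like genes rose, LOC106565239 by 0.93 ± 0.17 and LOC106583642 by 0.79 ± 0.16, and the thioredoxin-like gene LOC106577817 by 2.32 ± 0.40. The thioredoxin-like gene also passed without that library (adjusted p = 0.0384), and the reductase genes did not (0.0649 and 0.0931). Glutathione S-transferase A (gsta), which conjugates glutathione to electrophiles, had 74065, 75774 and 100113 at 50 µM, against 38179, 15096 and 18500.5 at 10 µM (1.91 ± 0.29, adjusted p = 0.00439).

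The NRF2 pathway's own regulators gave a mixed picture. Of 5 genes named KEAP1, the NRF2 inhibitor, LOC106574506 rose by 1.73 ± 0.25 and LOC106564503 by 0.92 ± 0.16 (adjusted p = 0.00339 and 0.00754, named after their values were seen), and the other 3 did not pass. The NRF2 gene nf2l2 itself had 2303, 2093 and 5170.1 at 50 µM, against 1834, 1225 and 1316 at 10 µM (1.02 ± 0.41, adjusted p = 0.137), and its copy LOC106586247 changed by 1.03 ± 0.33 (adjusted p = 0.077). A further copy, LOC106575067, rose by 1.02 ± 0.24 (adjusted p = 0.0262, 0.113 without the fish 3 library at 10 µM). The heme oxygenase-like gene LOC106590330, an enzyme of heme breakdown, had 563, 472 and 2180.3 at 50 µM, against 397, 149 and 247 at 10 µM. Fish 3 stood far above fish 1 and 2 at 50 µM, and the change of 1.77 ± 0.63 missed the threshold (adjusted p = 0.102). None of the 5 heme oxygenase genes passed, nor any of 4 quinone oxidoreductase nqo1-like genes (changes of 0.18 to 0.94), nor sulfiredoxin srxn1 (-0.28 ± 0.32). Leaving out the fish 3 library at 10 µM, 5 redox genes rose, and leaving out that at 50 µM, 10 rose, with list medians of 0.30 and 0.32.

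Ferritins, the iron stores of the cytosol, made up nearly all rises of the metal response list. Of 27 ferritin genes, 22 rose, and of the whole list of 73 genes 23 rose and 1 fell (31.5% and 1.37%, against 5.16% and 3.28% of all genes, list median 0.34). The middle subunit LOC100136565 had 27351, 48306 and 65013 normalised counts at 50 µM, against 9253, 6565 and 8531 at 10 µM. Fish 1 rose least and fish 3 most, the doses did not overlap, and the change was 2.46 ± 0.26 (adjusted p = 0.000903, 0.0119 without the fish 3 library at 10 µM). The copies LOC106564197, LOC106600951 and LOC106600763 rose by 2.64 ± 0.30, 2.54 ± 0.33 and 3.09 ± 0.45. These copies share the product name and possibly reads, so the 22 genes are not 22 independent observations. Outside the ferritins, 1 zinc importer (LOC106613601, ZIP3-like, 1.43 ± 0.20) rose and 1 zinc exporter (LOC106571198, zinc transporter 1-like, -1.69 ± 0.19) fell, of 34 zinc transporters tested, both named after their values were seen. Metallothionein B, a cysteine-rich metal binder, had 5763, 9634 and 10305 at 50 µM, against 4781, 1730.3 and 5384 at 10 µM (1.23 ± 0.38, adjusted p = 0.0669), and metallothionein A had 186, 589.8 and 735 at 50 µM, against 561, 264 and 871 at 10 µM, with overlap. Of the list, 16 genes rose without the fish 3 library at 10 µM, 15 of them ferritins. With all libraries of fish 3 left out, 11 rose.

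Genes of protein removal rose as well. In the proteasome and ubiquitin list 27 of 125 genes rose and 1 fell (21.6% and 0.8%, against 5.16% and 3.28%, list median 0.60). The autophagy receptor sequestosome 1, which carries ubiquitinated proteins to autophagosomes and holds KEAP1, is read from 2 genes. sqstm1 had 406198, 323768 and 783946 normalised counts at 50 µM, against 82234, 27321 and 36097 at 10 µM, and sqstm had 47432, 48026 and 117022 at 50 µM, against 14238, 7891 and 7507 at 10 µM. Both were higher in every fish, by 3.44 ± 0.42 and 2.77 ± 0.56 (adjusted p = 0.00147 and 0.0134, 0.0198 and 0.0724 without the fish 3 library at 10 µM). Of the 19S regulatory particle, which unfolds substrates, 18 of 40 genes rose and all 40 had a positive change (median 0.72). Of the 20S core, the protease barrel, 2 of 46 passed, with a median of 0.59 and 40 positive. They were the alpha type-7-like gene LOC106584187 (963, 911 and 2036 at 50 µM, against 325, 180.2 and 246 at 10 µM, a change of 2.31 ± 0.50) and the low beta type-7-like gene LOC106569939 (3.25 ± 0.86), and neither passed without the fish 3 library at 10 µM (adjusted p = 0.071 and 0.135). Of the list, 4 genes rose without the fish 3 library at 10 µM and 5 without that at 50 µM, although the medians were 0.69 and 0.52.

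Autophagy and lysosome genes gave 22 rises and 1 fall of 128 (17.2% and 0.781%, list median 0.32). The V-type proton ATPase, the pump that acidifies lysosomes, contributed 9 of 43. The largest change was that of the subunit e 1-like gene LOC106603876 (2.29 ± 0.50, adjusted p = 0.0193, 0.0963 without the fish 3 library at 10 µM). Subunit D (LOC106571673) had 1635, 1319 and 2022 at 50 µM, against 489, 282 and 356 at 10 µM (2.15 ± 0.23, adjusted p = 0.000903, 0.0119 without that library). The NBR1-like receptor LOC106579336 rose by 1.80 ± 0.30, and the ATG16-like gene LOC106613341, which helps to attach lipid to LC3, by 1.82 ± 0.32. Of this list, 4 genes rose without the fish 3 library at 10 µM and 4 without that at 50 µM.

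Transporters and enzymes that handle arsenic moved in both directions. Of 68 genes of arsenic and methionine metabolism 12 rose and 7 fell (17.6% and 10.3%, against 5.16% and 3.28%), with a list median of 0.06, which was -0.05 under library-size scaling. Without the fish 3 library at 10 µM 7 rose and 1 fell, and without that at 50 µM 7 rose and 2 fell. The canalicular multispecific organic anion transporter 2-like gene LOC106589510, of the ABC pump family that exports glutathione conjugates, had 1501, 996 and 1252 normalised counts at 50 µM, against 46.5, 8.7 and 0 at 10 µM. It was at 0 in fish 3 at 10 µM and near 1000 or higher in every culture at 50 µM, with a fitted change of 7.32 ± 0.82 (adjusted p = 0.00106, 0.00299 without that library). The sodium-dependent phosphate transporter 1-A (s20aa), of the family that carries phosphate into cells, had 192, 72.6 and 227 at 50 µM, against 2.2, 13.9 and 0 at 10 µM (5.36 ± 0.83, adjusted p = 0.00445, 0.028 without that library). It was the 1 of 6 phosphate transporter genes to pass, and the other 5 had positive changes from 0.188 upward. The facilitated glucose transporter 1-like gene LOC106569997 had 429, 299 and 222 at 50 µM, against 29.2, 1.7 and 0 at 10 µM (6.14 ± 0.68).

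The S-adenosylmethionine synthase type-2-like gene LOC106580346, of the form that in mammals is found outside the mature liver, had 44394, 41652 and 70169 normalised counts at 50 µM, against 5359, 2024 and 3743 at 10 µM. It rose by 3.88 ± 0.29, in all 3 fish (adjusted p = 0.000176, 0.0032 without the fish 3 library at 10 µM). The type-2 genes LOC106585265 and LOC106563191 rose by 1.94 ± 0.30 and 1.28 ± 0.30, of which LOC106563191 did not pass without that library (adjusted p = 0.106). The type-1 gene LOC106577245, the liver form in mammals, fell, with 13871, 2822 and 7539 at 50 µM, against 21120.2, 22313 and 14831 at 10 µM (-1.52 ± 0.40, adjusted p = 0.0377, 0.0741 without that library). Fish 2 fell furthest and fish 1 least. Of the 7 synthase genes tested, 3 rose and 1 fell. Another type-1 gene, LOC106613069 (-0.195 ± 0.164, adjusted p = 0.473), and the type-2 gene LOC106564841 (0.363 ± 0.24, adjusted p = 0.36) did not pass. Purine nucleoside phosphorylase, which can split nucleosides with arsenate in place of phosphate, rose in 3 of 5 genes, led by LOC106569594 with 288, 374 and 819 at 50 µM, against 48.6, 33.9 and 81.2 at 10 µM (3.10 ± 0.61, adjusted p = 0.0119, 0.0353 without the fish 3 library at 10 µM and 0.0624 without that at 50 µM). None of the 4 arsenite methyltransferase genes passed: LOC106588782 had 1436, 1632 and 1405 at 50 µM, against 2092, 2251 and 2678 at 10 µM (-0.65 ± 0.19, adjusted p = 0.0536) and as3mt had 204, 213 and 149 at 50 µM, against 189, 196 and 213 at 10 µM. The aquaporin-9-like gene LOC106595412, a channel that also passes arsenite, had 1927, 1561 and 1293 at 50 µM, against 2869, 2679.8 and 3319 at 10 µM and fell by 0.90 on the log2 scale (adjusted p = 0.0454, 0.15 without that library).

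Genes of the integrated stress response and amino acid supply had the highest share of rises of the lists. Of 64 genes 26 rose and 2 fell (40.6% and 3.12%, against 5.16% and 3.28%), and 57 had a positive change (median 0.92). chac1, an ATF4 target that breaks down glutathione, had 16699, 25438 and 40267 normalised counts at 50 µM, against 2516, 1507 and 1981 at 10 µM. The 4F2 heavy chain slc3a2, partner of the amino acid exchangers, had 3224, 4028 and 5486 at 50 µM, against 427, 312 and 265 at 10 µM. Their changes were 3.72 ± 0.49 and 3.65 ± 0.43 (adjusted p = 0.00215 and 0.00131, 0.0198 and 0.0157 without the fish 3 library at 10 µM). Among genes named after their values were seen, atf4 itself rose by 1.56 ± 0.22, atf5 by 1.69 ± 0.37 and the amino acid exchanger slc7a5 by 2.82 ± 0.54. Of 27 aminoacyl-tRNA synthetase genes 10 rose, and 25 had a positive change.

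Sestrins and DDIT4-like proteins, stress-inducible inhibitors of the growth kinase mTORC1, split by gene. The ddit4-like gene ddt4l had 4138, 5293 and 20655 at 50 µM, against 358, 126 and 188 at 10 µM (5.23 ± 0.88, adjusted p = 0.00697), and LOC106588768, which the reference gene table names sesn2, had 763, 433 and 667 at 50 µM, against 94.04, 36.6 and 42.5 at 10 µM (3.49 ± 0.57, adjusted p = 0.00565). In the opposite direction, sestrin-1 (sesn1) had 209, 122 and 261 normalised counts at 50 µM, against 1282, 1060.1 and 1195 at 10 µM, and the sestrin-1-like gene LOC106571802 had 9.4, 9.2 and 0 at 50 µM, against 158.9, 114 and 156.8 at 10 µM. Every culture at 50 µM lay below every culture at 10 µM for both, with changes of -2.64 ± 0.24 and -4.92 ± 0.89 (adjusted p = 0.000484 and 0.00836, 0.0032 and 0.0568 without the fish 3 library at 10 µM). In the p53 and cell death list 12 of 66 genes rose and 3 fell (18.2% and 4.55%, median 0.47). Of its 14 tested caspase genes 2 rose and 5 had a positive change, with a median of -0.295. The p53-like gene LOC106577554 had 1169.5, 1426 and 1567 at 50 µM, against 311, 292 and 257 at 10 µM (2.27 ± 0.30), the caspase-9-like gene LOC106567147, an initiator protease of cell death, rose by 2.45 ± 0.45, and the cell cycle inhibitor 1B-like gene LOC106584490 by 1.99 ± 0.37. In the fit that left out the fish 3 library at 10 µM, 11 genes of the stress and amino acid list rose and 1 of the p53 list, and in the fit without that at 50 µM, 13 and 3. With all libraries of fish 3 left out, 18 and 10 rose. The caspase-9-like and inhibitor 1B-like genes did not pass without the 10 µM library (adjusted p = 0.0556 and 0.059).

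**Figure D3:**
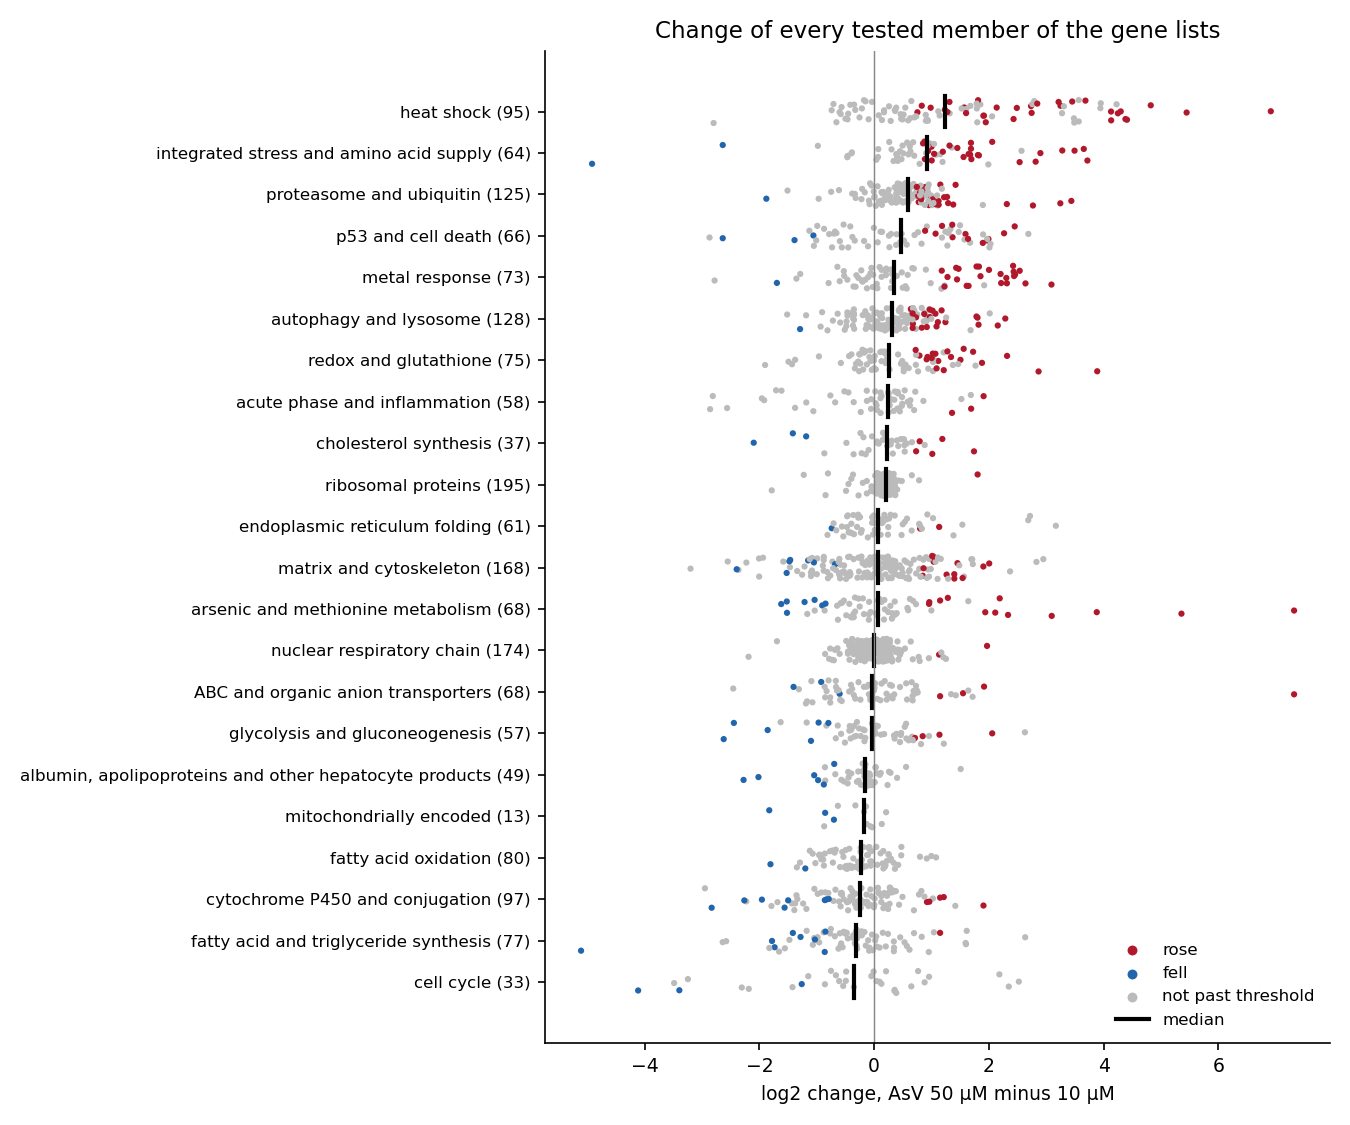
Log2 change at 50 µM minus 10 µM arsenate for every tested member of 22 gene lists (number tested in brackets), with genes that rose in red, genes that fell in blue, others in grey and the list median as a black bar. The heat shock, integrated stress and proteasome lists have the highest medians (1.23, 0.92 and 0.60), and cell cycle and fatty acid and triglyceride synthesis the lowest (-0.35 and -0.32).

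The largest falls were mostly of genes with low values, several of them signalling genes. The pseudokinase fam20a, partner of the secretory kinase FAM20C, had 10.3, 51.1 and 41.3 normalised counts at 50 µM, against 110.2, 635 and 1595 at 10 µM, and the FAM20A-like gene LOC106610323 had 0, 13.3 and 0 at 50 µM, against 49.7, 76.6 and 126 at 10 µM. The Wnt-9a-like gene LOC106599874, a ligand of the Wnt pathway, had 54.3, 36.8 and 17.01 at 50 µM, against 377, 708 and 844 at 10 µM. For these 3 genes all 50 µM cultures lay below all 10 µM cultures, and the changes of fam20a and the Wnt-9a-like gene were -4.05 ± 0.48 and -4.18 ± 0.64 (adjusted p = 0.00137 and 0.00416, 0.0193 and 0.0327 without the fish 3 library at 10 µM). The stress kinase p38a had 4.7, 0 and 3.6 at 50 µM, against 41.1, 105.3 and 276 at 10 µM (-5.17 ± 0.72), and the Wnt receptor frizzled-5-like gene LOC106582378 had at most 9.4 at any 50 µM culture (-4.01 ± 0.99). Fitted changes of genes at or near 0 depend on the pseudocount. The FAM20A-like and frizzled-5-like genes did not pass without the fish 3 library at 10 µM (adjusted p = 0.134 and 0.133). Of the 15 largest falls, 9 were listed at 0 in fish 3 at 50 µM, a culture with 1505 genes at 0.

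Enzymes of fatty acid and triglyceride synthesis leaned downward. Of 77 genes of fatty acid and triglyceride synthesis 8 fell and 1 rose (10.4% and 1.3%, against 3.28% and 5.16%, median -0.32), and the list sums were 282785 to 339590 at 50 µM, against 403755 to 422972 at 10 µM. Without the fish 3 library at 10 µM 2 genes fell and none rose, and without that at 50 µM 4 fell and 2 rose, with list medians of -0.38 and -0.41. The fatty acid synthase-like gene LOC106610271 had 878, 259 and 559 normalised counts at 50 µM, against 1959, 1865 and 1285 at 10 µM. Diacylglycerol O-acyltransferase 2-like, LOC106603538, which makes triglyceride, had 3694, 5456 and 2199 at 50 µM, against 10517, 13321 and 12796 at 10 µM. Neither gene overlapped between doses, and they fell by 1.73 and 1.78 on the log2 scale (adjusted p = 0.00645 and 0.0135, 0.028 and 0.0761 without the fish 3 library at 10 µM). The long-chain acyl-CoA ligase 1-like gene LOC106612015 had 21.5, 8.2 and 1.2 at 50 µM, against 192, 287 and 335 at 10 µM (-5.11 ± 0.92, adjusted p = 0.00843, 0.0626 without that library). Carnitine palmitoyltransferase 1-like LOC106573415, the gate of mitochondrial fatty acid oxidation, fell within each fish (1077, 1109 and 3875 at 50 µM, against 1719, 3528 and 9253 at 10 µM) although the doses overlapped between fish, and did not pass without that library (adjusted p = 0.0556). Of 80 oxidation genes 2 fell (2.5%), against 0 without the fish 3 library at 10 µM and 1 without that at 50 µM. The list median was -0.24, and 22 of the 80 genes had a positive change.

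Of 57 genes of glycolysis and gluconeogenesis 6 fell and 4 rose (10.5% and 7.02%, against 3.28% and 5.16%), with a median of -0.04, close to that of all genes. Without the fish 3 library at 10 µM 3 fell and none rose, and without that at 50 µM 4 fell and 1 rose. pck1, the first committed enzyme of gluconeogenesis, had 140.5, 274 and 175.01 normalised counts at 50 µM, against 663, 1262 and 1315 at 10 µM. The putative hexokinase HKDC1, LOC106612435, had 468, 489.6 and 541 at 50 µM, against 1845, 1978 and 1615 at 10 µM. Both were lower in every fish, with changes of -2.44 ± 0.38 and -1.85 ± 0.20 (adjusted p = 0.00438 and 0.000943, 0.0296 and 0.0085 without the fish 3 library at 10 µM). The aldolase B-like gene LOC106604855 had 11.2, 27.6 and 29.2 at 50 µM, against 94.04, 186 and 137 at 10 µM (-2.62 ± 0.51), whereas the enolase gene LOC106566383 rose by 2.06 ± 0.48, and neither passed without that library (adjusted p = 0.0626 and 0.111). In the sterol list HMG-CoA reductase (hmdh), the rate-limiting enzyme of cholesterol synthesis, had 5115, 4277 and 6994 at 50 µM, against 1995, 1684 and 1218 at 10 µM (1.74 ± 0.32), while the LDL receptor-like gene LOC106601326 had 1085, 588 and 589 at 50 µM, against 3091, 4313 and 2218 at 10 µM (-2.10 ± 0.42) and insig1, which restrains sterol synthesis, fell as well (-1.42 ± 0.35). That list had 5 rises and 3 falls of 37 genes, against 0 and 1 without the fish 3 library at 10 µM and 1 and 0 without that at 50 µM. Adjusted p without the 10 µM library was 0.0619 for hmdh, 0.0524 for insig1 and 0.0329 for the LDL receptor-like gene, which missed without the 50 µM library (0.065).

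Among 97 genes of cytochrome P450 and conjugation 8 fell and 5 rose (8.25% and 5.15%, against 3.28% and 5.16%, median -0.24). Without the fish 3 library at 10 µM 3 fell and 1 rose, and without that at 50 µM 3 fell and 2 rose. The 2 genes named cyp1a, the monooxygenase under the aryl hydrocarbon receptor, had 1394, 3292 and 961 normalised counts at 50 µM, against 10167, 12161 and 12871 at 10 µM, and 5316, 18412 and 4818 at 50 µM, against 22235, 39647 and 31155 at 10 µM. Fish 2 kept the highest level at 50 µM in both, and they fell with changes of -2.83 ± 0.41 and -1.96 ± 0.42 (adjusted p = 0.00338 and 0.0176, 0.0329 and 0.108 without the fish 3 library at 10 µM). The aryl hydrocarbon receptor-like gene LOC106605709 had 90.8, 36.8 and 19.4 at 50 µM, against 158.9, 181 and 268 at 10 µM (-2.26 ± 0.64, adjusted p = 0.049, 0.18 without that library). Of 49 hepatocyte products 6 fell and none rose (12.2% against 3.28%, median -0.16), among them vitellogenin, the yolk precursor that estrogen induces, with 65006, 45329.8 and 99686 at 50 µM, against 154534, 334301 and 645339 at 10 µM (-2.27 ± 0.61). The apolipoprotein Eb-like gene LOC106577506 had 5099.5, 6213 and 2090.4 at 50 µM, against 25326, 12634 and 13661 at 10 µM (-2.02 ± 0.43). None of the 49 passed without the fish 3 library at 10 µM or without that at 50 µM. With all libraries of fish 3 left out, 2 of the 49 fell.

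Several lists had few genes past the threshold. Of 195 ribosomal protein genes 1 rose, of the nuclear respiratory chain genes 2 rose (1.15%), of 61 genes of folding in the endoplasmic reticulum 2 rose and 1 fell, and of 58 acute phase and inflammation genes 3 rose. These shares lie near or below 5.16% upward and 3.28% downward. Of these 4 lists, 1 ribosomal protein gene passed without the fish 3 library at 10 µM and no other gene did. Of 13 mitochondrially encoded genes 3 fell (23.1%), led by ND4L with 448, 293 and 306 at 50 µM, against 1119, 1327 and 1218 at 10 µM (-1.83 ± 0.34). None of the 13 passed without the fish 3 library at 10 µM, and 1 without that at 50 µM. The share of reads on these 13 genes was 2.13% ± 0.345 in the 50 µM cultures and 2.45% ± 0.31 in the 10 µM cultures (SD, n = 3 each). It was lower at 50 µM within each fish, by 0.369, 0.287 and 0.327 percentage points. An exact sign permutation test gave a 2-sided p of 0.25, the smallest that 3 pairs allow. The share also depends on the reads of all other genes. Summed normalised values of the 13 genes overlapped between doses, at 611128 to 958188 at 50 µM, against 796950 to 1001327 at 10 µM. Of 33 cell cycle genes 3 fell (9.09%), of which the mcm6-B-like gene LOC106569474 was the 1 with values above 100, at 475, 645 and 611 at 50 µM, against 1814, 1085 and 1312 at 10 µM. No cell cycle gene passed without the fish 3 library at 10 µM. Among matrix and cytoskeleton genes 12 rose and 7 fell (7.14% and 4.17%; 1 and 2 without the fish 3 library at 10 µM, 2 and 3 without that at 50 µM), and in 68 ABC and organic anion transporters 4 rose and 3 fell (2 and 0 without the 10 µM library, 3 and 0 without the 50 µM one).

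From 50 to 100 µM, the genes that rose in the step lay lower in fish 3 and higher in fish 1 and 2 at the median. For all 1263 rises the median within-fish change from 50 to 100 µM was 0.23, 0.33 and -0.68 in fish 1, 2 and 3, and the integrated stress, p53, proteasome, autophagy, arsenic and matrix lists had the same signs. For the 31 heat shock genes that rose, the median within-fish change from 10 to 50 µM was 1.68, 2.27 and 3.53 in fish 1, 2 and 3, and from 50 to 100 µM it was 1.06, 1.49 and -1.75. The 19 redox genes moved by 0.99, 1.32 and 1.48 and then by -0.17, -0.07 and -0.12. For example, hs90a had 8836, 4599.9 and 2199.9 in the control, 11631, 2421 and 1719 at 10 µM, 126369, 88149 and 360213 at 50 µM and 297099, 371431 and 49655 at 100 µM. By contrast gsr had 67789, 69869.8 and 72997 at 50 µM and 63765, 65464 and 66739 at 100 µM. In fish 3 the heat shock values at 100 µM lay below those at 50 µM, and in fish 1 and 2 above. These genes were chosen by the 50 µM libraries, which enter both changes, so the values are a description with no test.

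**Figure D4:**
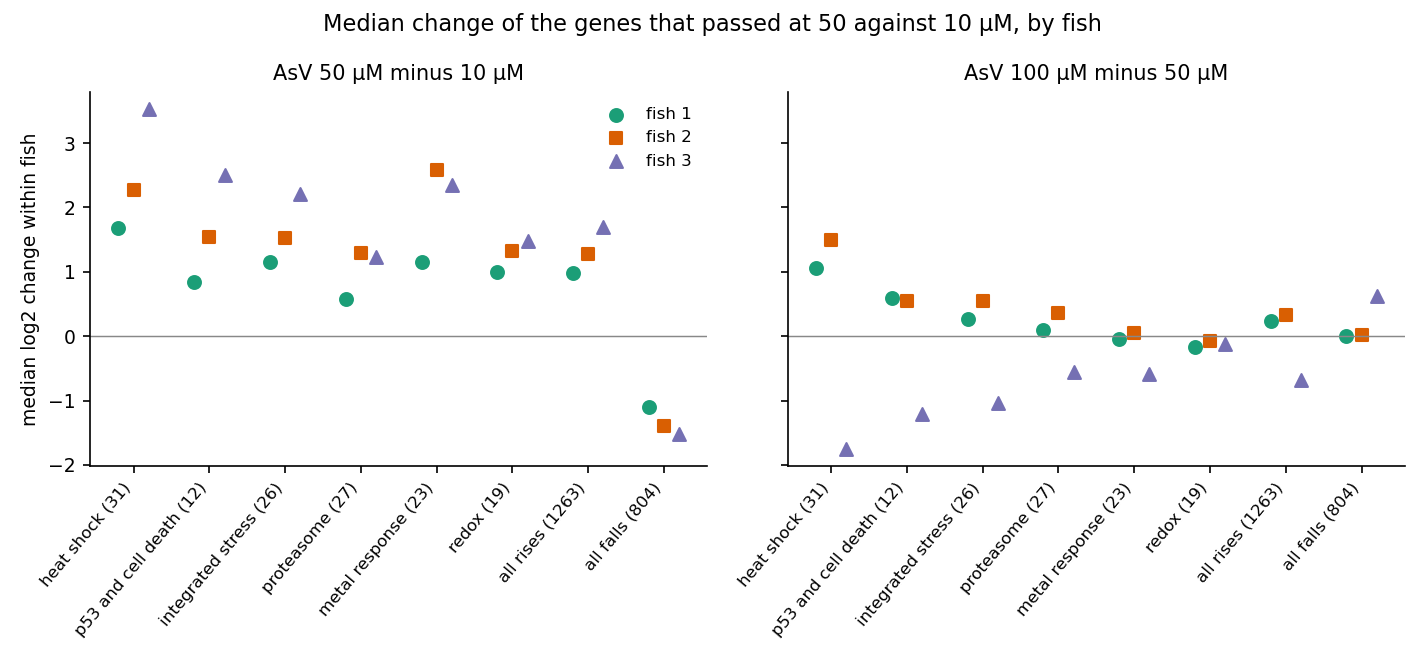
Median within-fish log2 change (vertical axis) of the genes that passed at 50 against 10 µM, by list (number of genes in brackets) and fish, for 50 minus 10 µM at left and 100 minus 50 µM at right. At left all medians share 1 direction within a list. At right fish 3 is negative for heat shock (-1.75), p53 and integrated stress genes where fish 1 and 2 are positive, and the redox medians lie between -0.17 and -0.07 in all 3 fish.

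Arsenobetaine (AsB), the methylated organic arsenic of seafood, was given to cells of the same 3 fish at the same nominal doses, with no library in common. Each compound had control cultures of its own, so compound and any batch of cultures cannot be told apart. Its own step at 50 against 10 µM had no gene past the threshold (0 of 24493, 1248 at an unadjusted p under 0.05). Tested directly, the arsenate step exceeded the arsenobetaine step in 855 genes (3.49%) and lay below it in 630 (2.57%), 6.06% of 24493 together, and these included 713 of the 1263 rises and 491 of the 804 falls. The difference contains the arsenate libraries that chose those rises and falls. The overlap, and the values of the genes and lists below, thus largely repeat the arsenate step and are no separate evidence. For hs90a the arsenobetaine change was -0.003 ± 0.62 and the difference 5.45 ± 0.88 (adjusted p = 0.00132). For sqstm1 the difference was 3.43 ± 0.43 and for LOC106580346, the S-adenosylmethionine synthase, 3.92 ± 0.30 (adjusted p = 3.53e-05 and 7.3e-09). sesn1 differed by -2.67 ± 0.28 and the Wnt-9a-like gene by -4.44 ± 0.63. Of the 15 largest rises, 10 passed the test of the difference and 5 did not. Among the 5 were the unc-45-like gene LOC106585035 (6.78 ± 2.17, adjusted p = 0.0746) and the organic anion transporter LOC106589510. For LOC106589510 the arsenobetaine change was 3.11 ± 0.95, and the difference of 4.21 ± 1.34 did not pass (adjusted p = 0.0588). In the lists, the difference passed upward for 30 of 95 heat shock, 27 of 125 proteasome and 22 of 73 metal response genes. It also did for 20 of 75 redox and 19 of 64 integrated stress genes, where 3.49% of all genes passed upward.

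Arsenite (AsIII) at 3 µM in cells of fish 4, 5 and 6 gave values for the same genes with no shared library or animal. Against the AsIII control of those fish, 1076 of the 1263 arsenate rises (85.2%) also passed as higher and 1 as lower, where 27.2% of all tested genes were higher. Of the 804 falls, 579 (72%) also passed as lower and 23 as higher, where 22.3% of all tested genes were lower. At 10 µM AsIII, where 42.3% of all genes passed, the shares were 61.5% of the rises (24.5% of all genes) and 49.3% of the falls (17.8% of all genes), and 53 rises and 70 falls went the opposite way. hs90a changed by 7.42 ± 0.26 at 3 µM AsIII, gsr by 1.89 ± 0.20, ferritin LOC100136565 by 2.33 ± 0.10, fam20a by -4.51 ± 0.28 and sesn1 by -2.51 ± 0.26. The compounds and doses differ, so the sizes stand side by side only.

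**Figure D5:**
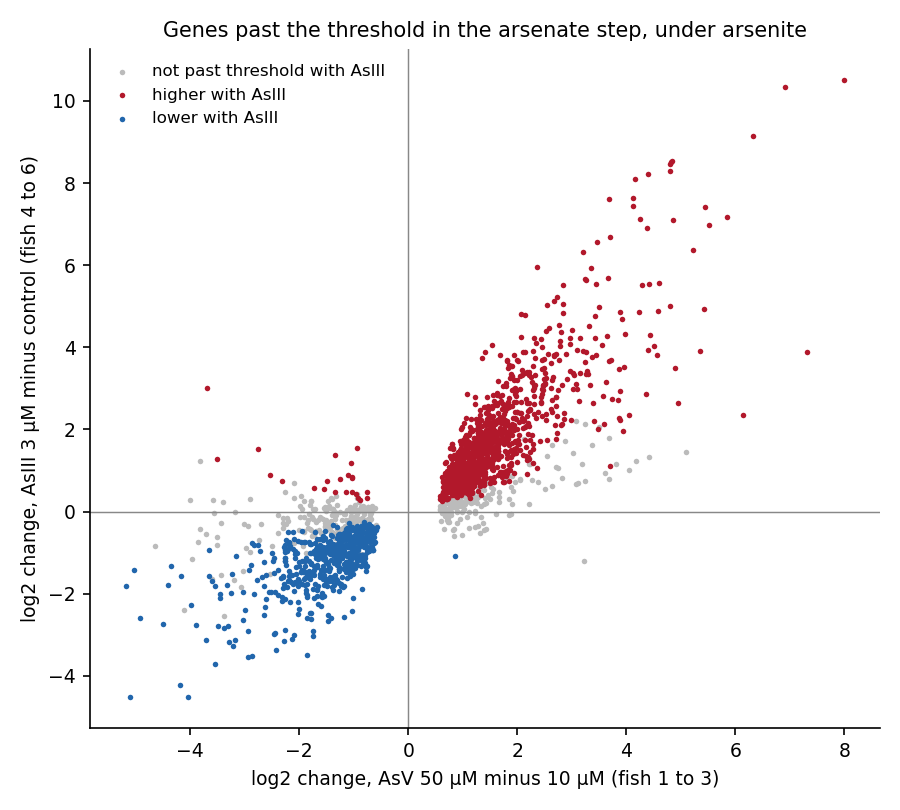
Log2 change at 50 minus 10 µM arsenate in fish 1 to 3 (horizontal axis) against that at 3 µM arsenite minus control in fish 4 to 6 (vertical axis) for the 2067 genes that passed in the arsenate step, coloured by the arsenite test. Of the rises 1076 are also higher with arsenite, and of the falls 579 are also lower.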

How the data were processed

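Total RNA of hepatocyte cultures was sequenced. Reads were aligned with HISAT2 and counted with featureCounts of Subread, and DESeq2 1.40.2 is named, per the submitters' processing notes. Neither genome build nor strand setting is given in the sources used here, nor how multiply mapping reads were counted, so no coordinates are printed. The deposited values are a normalised signal: read counts per gene divided by 1 size factor per library by the authors. Whole reads were recovered for 100% of values (tolerance 0.01 of a read), which gave the depths. No value column lay outside the 72 libraries. The design assumed raw counts or normalised values, and for these values took limma 3.58.1 (R 4.3.3) on log2(value + 1), with trend and robust variances. Changes of low genes depend on the added 1 and lay above or below those by edgeR on recovered reads. For LOC106589510 the change was 7.32 and by edgeR 6.40, and for LOC106563472 it was 7.99 and by edgeR 10.06.

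The fit held the 12 arsenate libraries, with group and fish as terms. With every library in place, control and 100 µM libraries entered the estimate of spread only. In fits without 1 library they also moved the fitted change, through the fish term. Tested genes reached 10 in 3 or more of the 6 libraries of the step (24493 of 25830), and p-values are 2-sided. The arsenobetaine difference came from 27 libraries of fish 1 to 3. The same fish number is the same animal, so numbers pair the libraries: deviations from group means correlated at 0.185 on average within fish (18 pairs, -0.116 to 0.386) and -0.091 between fish (36 pairs). Taking deviations from means of 3 libraries ties these 2 averages together, so the value between fish adds nothing to that within fish. Between the 10 and 50 µM libraries themselves the values within fish were lower, at 0.124, -0.039 and 0.096. The highest between different fish was 0.127 there. No 2 libraries of a group were copies (lowest chi-square per gene 35.1). Scripts were tested on simulated data. edgeR 4.0.16 and DESeq2 1.42.0 on recovered reads, other pseudocounts, filters, scaling and left-out libraries were alternatives.

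The comparison, gene lists and tests were chosen with earlier results of these data known. Genes were named by rule: the 15 largest rises and 15 largest falls past the threshold with the same direction in 3 fish and a mean of 50 or more in the higher group, up to 4 members per list with the largest change, and a set of arsenic, redox and chaperone genes. Single-library omissions and the grouping of list members by role were chosen after seeing the data. Gene names came from the table and a reference gene table (23011 of 25830 matched). No sequences were used here.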

Additional observations from a re-analysis of the deposited data

Results flagged for a closer look

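The arsenate and arsenobetaine steps at 50 against 10 µM differed by a direct test in 855 genes with a higher and 630 with a lower change under arsenate, in cells of the same 3 fish. Among them were ferritin LOC100136565 (2.63 ± 0.26, adjusted p = 5.26e-07) and the hexokinase-like gene LOC106612435 (-2.05 ± 0.25, adjusted p = 9.9e-06).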

How the results depend on the processing

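The count of 1263 rises and 804 falls at 50 against 10 µM moved most with the libraries used. Leaving out a fish or a single library gave 196 to 1098 rises and 92 to 830 falls, lowest without fish 1 altogether (196 and 92) and, for single libraries, without fish 3 at 10 µM (442 together). Limma without trend and robust variances gave 489 and 363, DESeq2 2227 and 1606, and the fit of the 6 libraries alone 845 and 399. Of the 1263 rises and 804 falls, 725 and 367 also passed in that fit of the 6 libraries. edgeR gave 1310 and 666, with 1207 and 660 genes in common. With no replicate block, 1044 rose and 600 fell, 1007 and 584 of them in common. Library-size scaling shifted the median of all genes to -0.13 and gave 1011 and 731. The remaining pseudocounts and filters stayed within 1221 to 1381 and 762 to 965.

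For the 2 neighbouring steps together, 0 genes became 4 under DESeq2 and ran from 0 to 27 over left-out fish and libraries. The 1485 genes that differed between arsenate and arsenobetaine became 718 with no replicate block and 443 to 816 over left-out fish.

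Of 114 named genes that passed, none changed direction under the alternatives in which they were tested (113 genes under DESeq2, fewer under the filter at 50, and all 114 under the others). All genes that passed moved the same way in all 3 fish, so a change of direction was unlikely from the start. edgeR kept 93, library-size scaling 97, the fit with no replicate block 89, the fit of the 6 libraries alone 82 and limma without trend 63. Omitting the fish 3 library at 10 µM kept 41, at 50 µM 61, and all libraries of fish 3 63. Omitting all libraries of fish 1 kept 36, and all those of fish 2 kept 47. Fits without a library have fewer samples.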
